A study of Arabidopsis thaliana with 8 samples.

Results

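The genes described here are the cytochrome P450 genes of Arabidopsis thaliana that the array's probe annotation names by a symbol of CYP and a digit. The rule found 25 symbols, each with 1 probe, among 14278 symbols and 26912 probes. Of these, 24 are annotated as P450 genes, and the symbol CYP71 belongs to AT3G44600, which is annotated as a cyclophilin and had no value. CYP51G2, a transcribed pseudogene related to the sterol demethylase CYP51G1, had no value either. This left 23 measured P450 genes, 19 of them in the subfamily CYP71B, with CYP718, CYP78A9, CYP79A2 and CYP79C2 as the remaining 4. RefSeq (TAIR10.1) lists 247 genes with a CYP symbol or P450 synonym, 36 of them CYP71B genes, so most P450 genes are not described here.

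Whole siliques, the seed pods, were compared between 2 RNA samples. The 90%-late sample held siliques of 6 to 10 days after pollination (DAP) with 10% early material, and the early sample held siliques of 2 to 5 DAP. The same RNA pair was used in 4 target preparation regimes with 2 hybridizations each: IVT (in vitro transcription, 1 round from 5 µg of RNA), 2IVT (2 rounds from 50 ng), PCR (20 cycles from 50 ng) and unamplified (30 µg). According to the labels, a single 90%-late preparation in each regime was hybridized against duplicate early preparations. The 90%-late target carried Cy3 and the early target Cy5 on all 8 slides, so stage and dye cannot be told apart. Errors and p-values therefore measure target preparation and hybridization, not the spread between plants, and leave out repeat preparation of the 90%-late target.

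Cytochromes P450 are haem monooxygenases, most of them anchored in the endoplasmic reticulum of plant cells. They insert an oxygen atom from molecular oxygen into a substrate with electrons delivered by a NADPH-dependent reductase. Plants hold large P450 families that act in hormone, lipid, pigment and defence metabolism. The number after CYP gives the family and the following letter the subfamily, which are assigned by sequence similarity. Many CYP71B genes stand in tandem in the Arabidopsis genome, and few have a known substrate.

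Values are log2 ratios with the sign turned, so that a positive value was higher in 90%-late siliques. The deposited ratios run the other way. Their log2 scale and direction were inferred, the direction from the dyes and from the 10% of early material, which should hold ratios towards early within 10-fold. In the unamplified regime, 202 of 23800 probes passed a log2 ratio of 3.32 (10-fold) towards 90%-late and 1 passed it towards early. On a natural log scale the counts past 10-fold were 398 and 9. Late seed maturation markers, of which 5 of 10 listed were measured, were above 0 in each regime, with medians of 3.43 after IVT, 2.85 after 2IVT, 1.44 after PCR and 5.53 unamplified. Of the 3 measured of 6 early seed coat flavonoid genes, all were below 0 after IVT and PCR and unamplified, and after 2IVT 1 was below 0 and 2 were above it. Between 22733 and 24403 probes had a value per hybridization. Over all features, the SD within a regime was 0.16 for IVT, 0.25 for 2IVT, 0.22 for PCR and 0.19 for unamplified. In whole siliques, fewer cells of a type and less RNA per cell cannot be told apart.

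CYP78A9 stood far above the other P450 genes in 90%-late siliques in the unamplified and PCR regimes, and several CYP71B genes differed in either direction. A gene was called where limma's test of the regime mean against 0 gave an adjusted p under 0.05 over all features. After IVT, 8 genes were higher and 5 lower of 23 tested (56.5%), beside 54.6% of all features called in this regime. After 2IVT, 10 were higher and 4 lower of 20 tested (70%), beside 47.1% of all features. After PCR, 4 were higher and 1 lower of 21 tested (23.8%), beside 31.5% of all features. In the unamplified regime, 5 were higher and 3 lower of 23 tested (34.8%), beside 43.7% of all features. The shares of all features called in the higher direction were 22.6% after IVT, 20.9% after 2IVT, 15.1% after PCR and 17.7% unamplified. In the lower direction they were 32.0%, 26.2%, 16.4% and 26.0% in the same order of regimes.

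The median log2 ratio over the P450 genes tested was 0.01 after IVT (all features -0.08), 0.36 after 2IVT (-0.04), 0.05 after PCR (-0.01) and 0.11 unamplified (-0.07). The median size of the log2 ratio, without its sign, was 0.46 after IVT (all features 0.38), 0.70 after 2IVT (0.31), 0.12 after PCR (0.24) and 0.28 unamplified (0.29). Single hybridizations bore on some of these values. The 2IVT median was 0.07 without 2IVT replicate 1, and the unamplified median was -0.06 without unamplified replicate 1, which also left 1 gene called lower. Without PCR replicate 2 the count of genes lower after PCR was 0, and without either 2IVT hybridization it was 2.

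**Figure D1:**
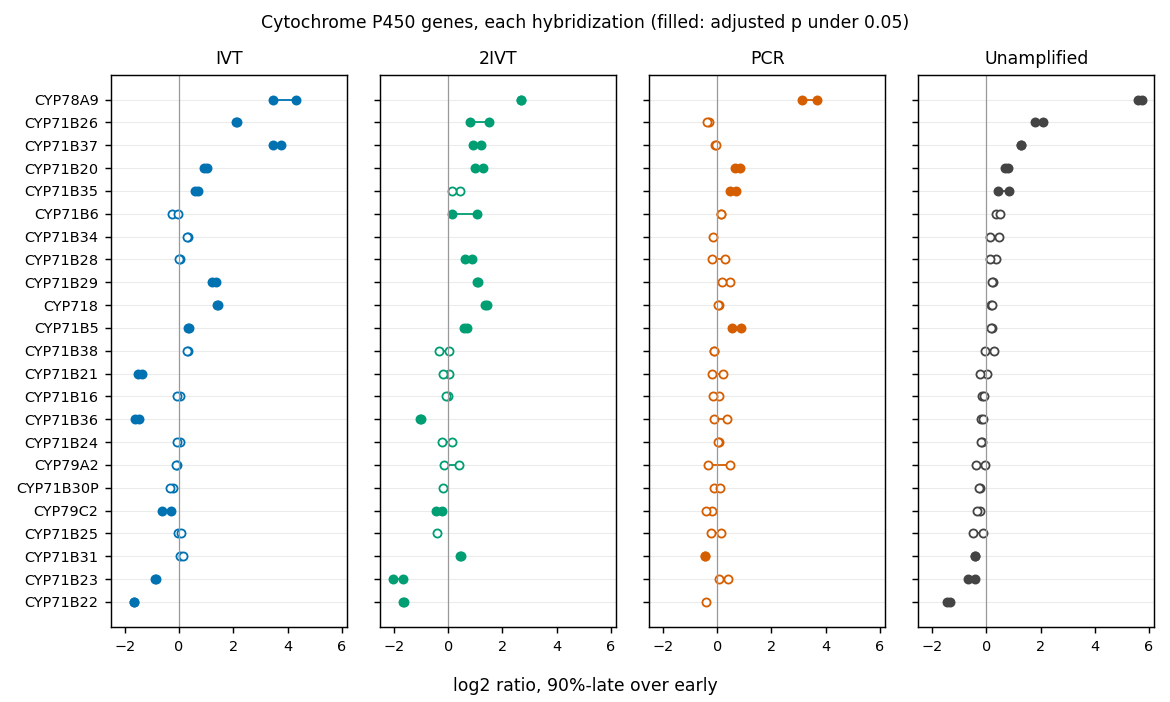
Log2 ratio of 90%-late over early siliques (horizontal axis) for each of the 23 measured P450 genes (rows, ordered by the unamplified mean), with 1 panel per regime. Each point is 1 hybridization, a line joins the 2 hybridizations of a regime, and filled points mark genes with an adjusted p under 0.05; CYP78A9 lies at the top in the unamplified regime at 5.75 and 5.60, and after PCR most genes lie near 0.

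Over the 19 genes tested in all 4 regimes, 2 were called in the same direction in every regime, CYP78A9 and CYP71B20, both higher in 90%-late siliques (11.8% of all features tested in all 4 were called the same way throughout). CYP71B16, CYP71B24, CYP71B38 and CYP79A2 were called in none (20.9% of all features), and CYP71B31 was called in opposite directions in different regimes (5.37% of all features). Counting every measured gene, 16 were called in at least 1 regime and 7 in none. This count includes genes tested in fewer regimes, and no share of all features was computed on the same basis.

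CYP78A9 (AT3G61880) belongs to a family of organ growth regulators, and in Arabidopsis it promotes the growth of siliques and seeds from maternal tissue. Its log2 ratio was 3.45 and 4.31 with IVT, 2.68 and 2.68 with 2IVT, 3.69 and 3.13 with PCR, and 5.75 and 5.60 unamplified. All 8 values were far above 0, and those of each amplified regime lay below both unamplified values. The means corresponded to levels 14.7-fold higher in 90%-late than in early siliques after IVT, 6.40-fold after 2IVT, 10.6-fold after PCR and 51.1-fold unamplified. Intensities were not used here, so it is not known whether a fixed value set for a weak channel entered these folds. Counted from the most 90%-late feature, CYP78A9 ranked 211 of 23633 after IVT, 228 of 22066 after 2IVT, 6 of 22715 after PCR and 54 of 23581 unamplified. Its lower ratio relative to unamplified passed the test in each amplified regime. The difference was -1.79 after IVT (95% interval -2.38 to -1.21, adjusted p = 0.00108), -2.996 after 2IVT (-3.58 to -2.41, adjusted p = 4.11e-05) and -2.26 after PCR (-2.85 to -1.68, adjusted p = 0.000184). Its values were most spread after IVT, with an SD of 0.61 (n = 2), against 0.11 unamplified (n = 2).

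Among the CYP71B genes, CYP71B26 and CYP71B37 had the highest unamplified ratios. Like most of the subfamily, they are named by sequence similarity. CYP71B26 (AT3G26290) had log2 ratios of 2.12 and 2.12 with IVT, 1.52 and 0.80 with 2IVT, -0.30 and -0.39 with PCR, and 1.82 and 2.10 unamplified. It was thus higher in 90%-late siliques in every regime but PCR, where both values lay below 0. The mean of -0.35 after PCR was not called (adjusted p = 0.112), although the same mean was called without either 2IVT hybridization. The fit uses 1 spread per gene for all regimes, and the 2IVT values of this gene had an SD of 0.51 (n = 2). CYP71B37 (AT3G26330) had log2 ratios of 3.45 and 3.76 with IVT, 1.21 and 0.92 with 2IVT, -0.08 and -0.03 with PCR, and 1.30 and 1.29 unamplified. The IVT values exceeded all others of this gene, and the mean corresponded to a 12.2-fold higher level in 90%-late siliques, against 2.45-fold unamplified. After PCR the gene was not separated from 0 (adjusted p = 0.762).

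CYP71B20 (AT3G26180) was the single CYP71B gene called in all 4 regimes. Its log2 ratio was 1.03 and 0.91 with IVT, 1.29 and 1.002 with 2IVT, 0.64 and 0.84 with PCR, and 0.71 and 0.78 unamplified. No difference from unamplified was called for it: 0.23 after IVT (95% interval -0.13 to 0.59), 0.40 after 2IVT (0.05 to 0.76, adjusted p = 0.115) and -0.01 after PCR (-0.36 to 0.35). CYP71B35 (AT3G26310) was higher in 90%-late siliques after IVT (0.58 and 0.70), after PCR (0.49 and 0.68) and unamplified (0.84 and 0.41). Its 2IVT values of 0.42 and 0.13 overlapped with the unamplified ones and were not called. The PCR call was lost without PCR replicate 2 (0.49, adjusted p = 0.109) and the unamplified call without unamplified replicate 1 (0.41, adjusted p = 0.103).

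CYP71B22 and CYP71B23 were lower in 90%-late siliques after both IVT regimes and unamplified. CYP71B22 (AT3G26200) had log2 ratios of -1.65 and -1.66 with IVT, -1.65 and -1.61 with 2IVT, and -1.45 and -1.33 unamplified. These means corresponded to levels in early siliques that were 3.15-fold, 3.10-fold and 2.62-fold those in 90%-late siliques. On PCR slides it had a single value of -0.41, so it was not tested there. CYP71B23 (AT3G26210) had log2 ratios of -0.83 and -0.90 with IVT, -2.03 and -1.65 with 2IVT, 0.07 and 0.38 with PCR, and -0.67 and -0.41 unamplified. The 2IVT mean of -1.84 was the lowest of any P450 gene in any regime, and the PCR values lay on the other side of 0 without being called (adjusted p = 0.215). The unamplified call was lost without unamplified replicate 1 (-0.41, adjusted p = 0.137).

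CYP71B21 and CYP71B36 were lower in 90%-late siliques after IVT and were not called unamplified. CYP71B21 (AT3G26190) had log2 ratios of -1.37 and -1.50 with IVT, 0.02 and -0.17 with 2IVT, 0.22 and -0.19 with PCR, and 0.02 and -0.22 unamplified. The IVT values stood apart from the other 6, which overlapped. CYP71B36 (AT3G26320) had log2 ratios of -1.49 and -1.62 with IVT, -1.01 and -1.03 with 2IVT, 0.34 and -0.12 with PCR, and -0.20 and -0.11 unamplified. Both IVT regimes were called for this gene, and the PCR and unamplified regimes were not.

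CYP71B29, CYP71B28 and CYP71B5 were higher in 90%-late siliques after at least 1 kind of amplification and were not called unamplified. CYP71B29 (AT1G13100) had log2 ratios of 1.35 and 1.22 with IVT, 1.08 and 1.11 with 2IVT, 0.47 and 0.17 with PCR, and 0.25 and 0.21 unamplified. Both IVT regimes were called, and PCR missed the threshold (adjusted p = 0.0504). The PCR mean passed with each hybridization centred on its median (0.33, adjusted p = 0.0448). It also passed with only features that had values on all hybridizations (adjusted p = 0.0487). It passed without either 2IVT hybridization (adjusted p = 0.0455) or without PCR replicate 2 (0.47, adjusted p = 0.0492). CYP71B28 (AT1G13090), its neighbour, was called after 2IVT alone, with 0.88 and 0.62. It had 0.02 and -0.01 with IVT, -0.19 and 0.28 with PCR, and 0.35 and 0.13 unamplified. CYP71B5 (AT3G53280) was higher in 90%-late siliques in each amplified regime, with 0.37 and 0.32 with IVT, 0.60 and 0.69 with 2IVT and 0.87 and 0.56 with PCR. Its unamplified values of 0.20 and 0.18 were not called (adjusted p = 0.19), and its IVT call was lost without either IVT hybridization (0.32 and 0.37, adjusted p of 0.183 and 0.131).

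CYP71B31 (AT3G53300) changed direction between regimes. Its log2 ratio was 0.02 and 0.16 with IVT, 0.43 and 0.46 with 2IVT, -0.45 and -0.46 with PCR, and -0.41 and -0.43 unamplified. It was called higher in 90%-late siliques after 2IVT (adjusted p = 0.00388) and lower after PCR (adjusted p = 0.00654) and unamplified (adjusted p = 0.00624). The PCR call was lost without PCR replicate 2 (adjusted p = 0.0541), and the unamplified call without unamplified replicate 1 or 2 (adjusted p of 0.0658 and 0.078). CYP71B6 (AT2G24180), an enzyme of indole-3-acetonitrile metabolism, was called after 2IVT only, where its values were 1.08 and 0.16. Without 2IVT replicate 1 the value was 0.16 (adjusted p = 0.456), so this call rested on that hybridization, and it was lost with separate fits (adjusted p = 0.0767). Its values were -0.27 and -0.05 with IVT, 0.14 and 0.12 with PCR, and 0.35 and 0.51 unamplified. The unamplified mean of 0.43 (adjusted p = 0.071) was called with centred values (adjusted p = 0.0404) and with separate fits (adjusted p = 0.0173). It was also called without either 2IVT hybridization.

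CYP718 (AT2G42850), the single member of its family measured here, was higher in 90%-late siliques after both IVT regimes. Its log2 ratio was 1.39 and 1.42 with IVT, 1.43 and 1.36 with 2IVT, 0.08 and 0.02 with PCR, and 0.16 and 0.22 unamplified. The 4 IVT-based values lay together and well above the other 4. The means corresponded to 2.65-fold and 2.63-fold higher levels in 90%-late siliques after IVT and 2IVT, against 1.14-fold unamplified.

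The CYP79 enzymes convert amino acids to aldoximes, the first step towards glucosinolates. CYP79A2 (AT5G05260), which acts on phenylalanine, was called in no regime, with means of -0.09 after IVT, 0.14 after 2IVT, 0.06 after PCR and -0.20 unamplified. Its PCR values of -0.34 and 0.46 lay on either side of 0. CYP79C2 (AT1G58260) had log2 ratios of -0.30 and -0.63 with IVT, -0.45 and -0.23 with 2IVT, -0.21 and -0.40 with PCR, and -0.24 and -0.33 unamplified. All 8 values were below 0 and overlapped between regimes, and the IVT (adjusted p = 0.00697) and 2IVT (adjusted p = 0.0369) means passed the threshold. The IVT call was lost without IVT replicate 2 (-0.30, adjusted p = 0.213). The 2IVT call was lost without 2IVT replicate 1 (-0.23, adjusted p = 0.304) and without either unamplified hybridization (adjusted p = 0.0532), and also with centred values (-0.30, adjusted p = 0.0626) and with separate fits (adjusted p = 0.109).

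The remaining 6 genes, all CYP71B, were called in no regime. CYP71B16, CYP71B24 and CYP71B38 had means between -0.17 and 0.30 in the 4 regimes. CYP71B25 had a single 2IVT value of -0.40 and means of 0.01 after IVT, -0.05 after PCR and -0.30 unamplified. The P of CYP71B30P marks a pseudogene name, although RefSeq lists the gene as protein-coding. It had a single 2IVT value of -0.18 and means of -0.29 after IVT, -0.02 after PCR and -0.25 unamplified. CYP71B34 had no 2IVT value, a single PCR value of -0.14, and means of 0.32 after IVT and 0.30 unamplified. The IVT means of CYP71B30P (adjusted p = 0.0513), CYP71B34 (adjusted p = 0.055) and CYP71B38 (adjusted p = 0.0647) lay close to the threshold. With centred values, CYP71B34 passed it after IVT (adjusted p = 0.0234) and unamplified (0.0443), and CYP71B38 after IVT (0.0253). With separate fits the IVT means of CYP71B30P, CYP71B34 and CYP71B38 passed it, with adjusted p of 0.0225, 0.0129 and 0.0168. Without either 2IVT hybridization each of them passed it, with adjusted p of 0.0351, 0.0417 and 0.0396, and CYP71B30P also did without either PCR hybridization (adjusted p = 0.042).

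To ask where target preparation altered the ratio, each amplified regime was tested against the unamplified one. The 3 contrasts share the unamplified hybridizations. After IVT, 4 genes lay above and 3 below the unamplified ratio of 23 tested (30.4%), beside 17.2% of all features. After 2IVT, 3 lay above and 4 below of 20 tested (35%), beside 17.0% of all features. After PCR, 2 lay above and 3 below of 21 tested (23.8%), beside 20.8% of all features. By direction, 8.09%, 8.21% and 11.1% of all features lay above and 9.09%, 8.81% and 9.80% below after IVT, 2IVT and PCR. CYP78A9 was the single P450 gene called below unamplified in all 3 contrasts.

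After IVT the largest difference upwards was that of CYP71B37, 2.31 (95% interval 1.94 to 2.68, adjusted p = 8.89e-06), followed by CYP718 with 1.21 (0.90 to 1.52, adjusted p = 0.000229) and CYP71B29 with 1.06 (0.71 to 1.40, adjusted p = 0.00107). The largest downwards after CYP78A9 were CYP71B36 with -1.40 (-1.79 to -1.01, adjusted p = 0.000361) and CYP71B21 with -1.33 (-1.73 to -0.93, adjusted p = 0.000614). CYP71B31 lay above by 0.51 (0.19 to 0.83, adjusted p = 0.0327), a call that was lost without any 1 of the IVT or unamplified hybridizations (0.44 to 0.58, adjusted p from 0.104 to 0.241).

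After 2IVT, CYP718 (1.20), CYP71B31 (0.86) and CYP71B29 (0.86) lay above the unamplified ratio. CYP71B23 (-1.30), CYP71B36 (-0.87) and CYP71B26 (-0.80) lay below it besides CYP78A9. CYP718 and CYP71B29 were thus displaced upwards and CYP71B36 downwards in both IVT regimes. The CYP71B37 difference of -0.23 after 2IVT had an interval of -0.60 to 0.14. The CYP71B26 call (adjusted p = 0.0303) was lost in 7 of the 8 settings that left out 1 hybridization, all but that without 2IVT replicate 1 (adjusted p from 0.0508 to 0.175), and when regimes were fitted separately (0.106), and that of CYP71B36 without unamplified replicate 2 (-0.82, adjusted p = 0.0555). Without that hybridization 2 genes were called below.

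After PCR, CYP71B26 and CYP71B37 lay below the unamplified ratio besides CYP78A9, by -2.30 (95% interval -2.79 to -1.82, adjusted p = 3.96e-05) and -1.35 (-1.72 to -0.98, adjusted p = 0.00028). These 3 were the genes with the highest unamplified ratios, which are themselves part of the difference. CYP71B23 lay above by 0.77 (0.36 to 1.18, adjusted p = 0.0144) and CYP71B5 by 0.52 (0.18 to 0.87, adjusted p = 0.037). The CYP71B5 call was lost without either IVT, either unamplified or PCR replicate 1 (0.37 to 0.53, adjusted p from 0.0687 to 0.166), with centred values (0.47, adjusted p = 0.0577) and with separate fits (adjusted p = 0.062). That of CYP71B23 was lost without PCR replicate 2 (0.61, adjusted p = 0.0942) or unamplified replicate 1 (0.64, adjusted p = 0.111).

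**Figure D2:**
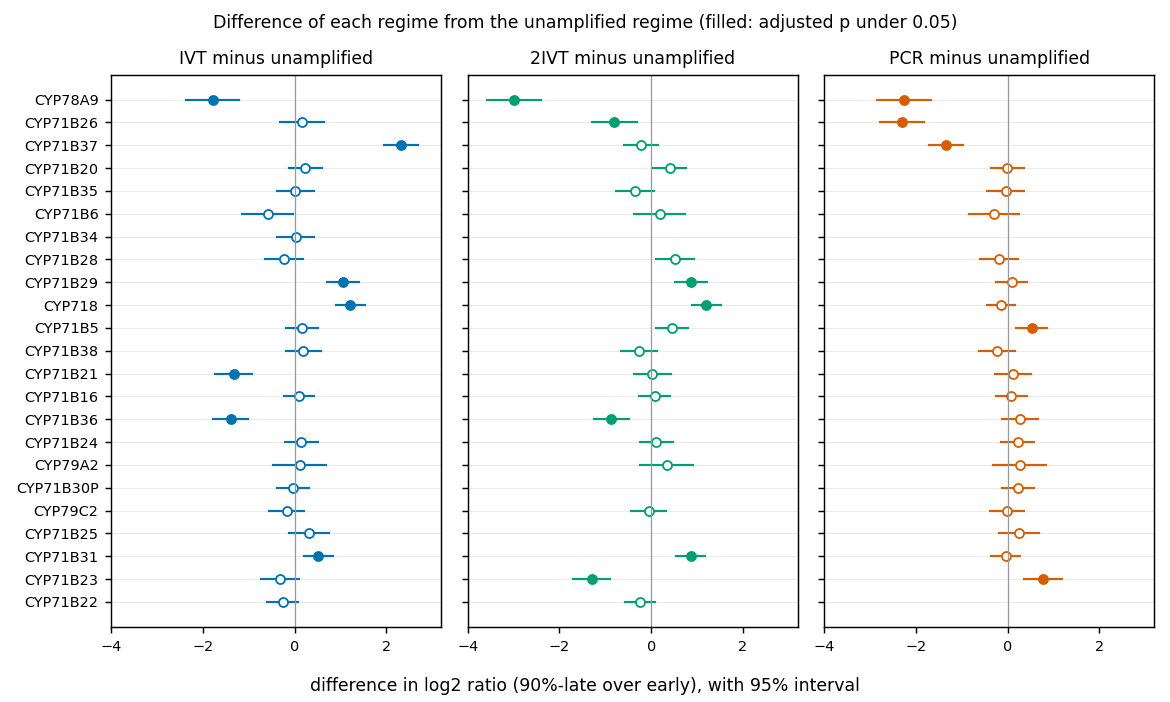
Difference in log2 ratio between each amplified regime and the unamplified regime (horizontal axis) for the P450 genes (rows, ordered by the unamplified mean), 1 panel per amplified regime. Points are fitted differences with 95% intervals and filled points have an adjusted p under 0.05; CYP78A9 is below 0 in all 3 panels, and CYP71B37 is at 2.31 after IVT and at -1.35 after PCR.

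The amplified regimes also differed from each other. Between 2IVT and IVT, 2 genes lay above and 4 below the IVT ratio of 20 tested, beside 14.2% of all features called (7.00% above and 7.22% below). CYP71B21 lay above by 1.36 (adjusted p = 0.000934), and CYP71B37 below by -2.54 (adjusted p = 1.97e-05). CYP71B28 (0.74), CYP78A9 (-1.20), CYP71B23 (-0.97) and CYP71B26 (-0.96) made up the rest, and each lost its call in at least 2 of the settings that left out 1 hybridization (adjusted p from 0.052 to 0.15), as did CYP71B26 with separate fits (0.0569). The counts were 1 above without IVT replicate 1, IVT replicate 2 or 2IVT replicate 1, and 2 below without IVT replicate 1 or 2IVT replicate 1 and 1 below without IVT replicate 2.

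Between PCR and IVT, 3 genes lay above and 5 below the IVT ratio of 21 tested, beside 39.2% of all features (21.6% above and 17.6% below). CYP71B37 had the largest difference of any P450 gene, -3.66 (95% interval -4.03 to -3.29, adjusted p = 1.46e-07). CYP71B26 followed with -2.47, CYP718 with -1.36, CYP71B29 with -0.97 and CYP71B31 with -0.55, and CYP71B36 (1.66), CYP71B21 (1.45) and CYP71B23 (1.09) lay above. The CYP71B31 call was lost without IVT replicate 2 (-0.48, adjusted p = 0.106).

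Between the regimes that both started from 50 ng, PCR and 2IVT, 2 genes lay above and 6 below the 2IVT ratio of 19 tested, beside 31.6% of all features (16.5% above and 15.2% below). CYP71B23 lay above by 2.06 (95% interval 1.66 to 2.47, adjusted p = 2.35e-05) and CYP71B36 by 1.13 (0.74 to 1.52, adjusted p = 0.000814). CYP71B26 (-1.50), CYP718 (-1.35), CYP71B37 (-1.12), CYP71B31 (-0.90), CYP71B29 (-0.78) and CYP71B28 (-0.70) lay below. The CYP71B28 call was lost without 2IVT replicate 1 (-0.57, adjusted p = 0.0912) or PCR replicate 1 (-0.47, adjusted p = 0.106). CYP78A9 was 0.73 above 2IVT after PCR without passing the test (adjusted p = 0.0576). It passed with separate fits (adjusted p = 0.0365), and also without either IVT hybridization and without PCR replicate 2 (1.02).

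Across genes, the IVT and 2IVT means had a Pearson correlation of 0.84 (Spearman 0.87, 20 genes). The IVT and PCR means had 0.52 (0.10, 21 genes), and the 2IVT and PCR means had 0.55 (0.22, 19 genes). Without CYP78A9 the Pearson correlations were 0.77 for IVT and 2IVT, 0.01 for IVT and PCR and 0.10 for 2IVT and PCR. The regimes share the RNA pair, and genes are not independent replicates, so these are descriptions.

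A tandem run on chromosome 3 held 12 of the measured genes, and some neighbours there had opposite ratios. The run from CYP71B16 (AT3G26150) to CYP71B37 (AT3G26330) holds 20 protein-coding genes in RefSeq, 16 of them P450 genes, of which 12 were measured. CYP71B3, CYP71B4, CYP71B17 and CYP71B19 were not among the annotated probes. After IVT, 4 of the 12 genes were higher and 4 lower in 90%-late siliques (66.7%, beside 54.6% of all features). After 2IVT, 3 of the 10 tested were higher and 3 lower (60%, beside 47.1%). After PCR, CYP71B20 and CYP71B35 were called of the 10 tested, both higher (20%, beside 31.5%). Unamplified, 4 of the 12 were higher and 2 lower (50%, beside 43.7%).

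**Figure D3:**
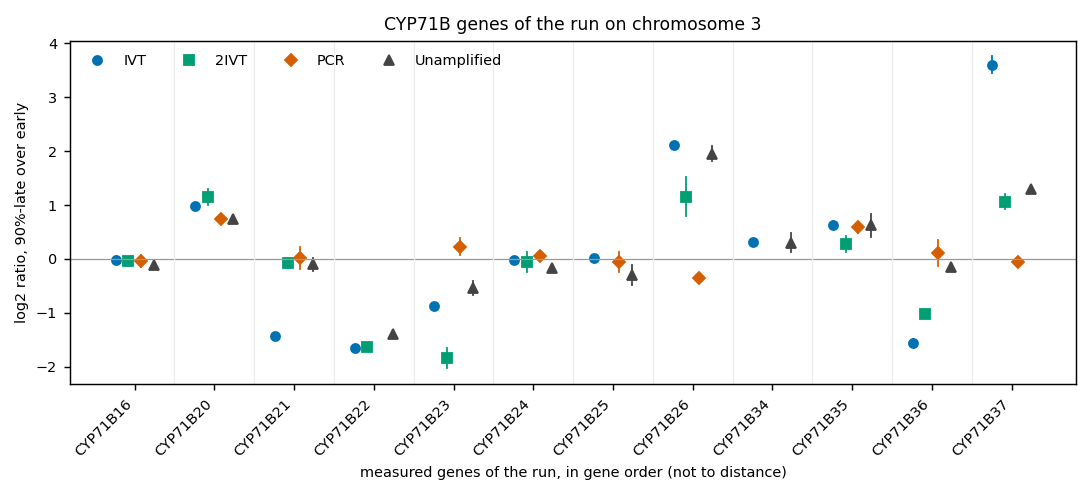
Log2 ratio of 90%-late over early siliques (vertical axis) for the 12 measured CYP71B genes of the run on chromosome 3, in gene order (horizontal axis, not to distance). Symbols are regime means and vertical lines span the 2 hybridizations, which are shorter than the symbol for some genes; CYP71B20 is above 0 in all 4 regimes, CYP71B22 is below 0 in the 3 regimes plotted for it, and CYP71B36 and CYP71B37 lie on opposite sides of 0 after IVT and 2IVT.

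In gene order, CYP71B20 was higher in 90%-late siliques in every regime, and CYP71B21, CYP71B22 and CYP71B23, which follow it, were lower after IVT. At the other end, CYP71B36 had a mean of -1.55 after IVT and its neighbour CYP71B37 a mean of 3.60. After 2IVT the pair had -1.02 and 1.06, unamplified -0.15 and 1.30, and after PCR 0.11 and -0.05. A shorter run on chromosome 3 holds CYP71B5, CYP71B30P and CYP71B31 (AT3G53280 to AT3G53300), whose unamplified means were 0.19, -0.25 and -0.42. CYP71B28 and CYP71B29 are neighbours on chromosome 1, with 0.01 and 1.29 after IVT. This pair was more alike in the other regimes, with 0.75 and 1.09 after 2IVT, 0.05 and 0.32 after PCR, and 0.24 and 0.23 unamplified. Tandem P450 genes can be alike in sequence, each was read by 1 probe, and the probe sequences were not used here. How far a probe's signal came from a neighbouring gene was not tested, so the ratios of single CYP71B genes are uncertain in this respect.

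Other P450 genes by role were looked for by their CYP symbol alone. Genes that the annotation gives under another name were not matched by locus, so they are missing from these counts. Of 78 P450 symbols listed for hormone, sterol, phenylpropanoid, lipid and glucosinolate metabolism and organ size, 3 were in the probe annotation and 2, CYP78A9 and CYP79A2, had values. None of the 8 loci listed for redox partners, the P450 reductases, cytochromes b5 and their reductase, was matched to an annotated probe.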

How the data were processed

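The authors deposited log2 ratios of early over 90%-late, 1 for each probe on a hybridization, from long oligonucleotide arrays scanned with GenePix software. According to the methods, values were normalized with elements of SNOMAD by the global mean and by local means over the array surface and over intensity. The methods also describe removing spots weak in both channels, giving a fixed intensity to a channel that was weak alone, and taking the low power reading for saturated spots. Whether these steps came before deposit was not stated, and the build behind the probe set is not given in the sources. Such steps could change weak or extreme ratios. Intensities were not used here, so depth is unknown, and 2 hybridizations a regime limit the precision.

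Probes were named from the platform annotation and loci from RefSeq (TAIR10.1). The sign was turned and probes of a symbol were averaged. All 24851 features with a value entered 1 fit with limma (lmFit and eBayes) over the 8 hybridizations, with 4 regime means, 4 residual degrees of freedom for a complete feature and 6.64 prior degrees of freedom. A feature was tested where both hybridizations of the regime or regimes had a value, with Benjamini-Hochberg adjustment over all features tested and a threshold of 0.05, two-sided. The fit was checked on simulated data. The fit ran in limma 3.58.1 under R 4.3.3. Tables and plots were made in Python 3.11.15 with pandas 2.3.3, numpy 2.4.6 and matplotlib 3.10.9.

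Genes were named by a rule: per regime the 5 higher and 5 lower called genes with the largest mean of the same sign on both hybridizations, per difference from unamplified the 3 in each direction, measured genes of the role lists, and members of a family described. With 23 genes, the others were named as well. The members and lists were chosen with earlier results of these data known, and the comparisons among amplified regimes were added after their values were seen. Alternatives were median centring, separate fits, complete features only, probes not averaged, a replicate block and leaving out each hybridization. Each regime had slides of its own with neighbouring numbers, and an effect of the slides cannot be told apart from that of the regime.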

Additional observations from a re-analysis of the deposited data

Results flagged for a closer look

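The following P450 genes had a stage ratio in an amplified regime that differed from the unamplified regime by the test of the difference itself (limma, adjusted p under 0.05). Values are differences in log2 ratio, amplified minus unamplified.

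After IVT, CYP71B37 (2.31), CYP718 (1.21), CYP71B29 (1.06) and CYP71B31 (0.51) lay above the unamplified ratio, and CYP78A9 (-1.79), CYP71B36 (-1.40) and CYP71B21 (-1.33) lay below it. After 2IVT, CYP718 (1.20), CYP71B31 (0.86) and CYP71B29 (0.86) lay above, and CYP78A9 (-2.996), CYP71B23 (-1.30), CYP71B36 (-0.87) and CYP71B26 (-0.80) lay below. After PCR, CYP71B23 (0.77) and CYP71B5 (0.52) lay above, and CYP71B26 (-2.30), CYP78A9 (-2.26) and CYP71B37 (-1.35) lay below. Of these 19 differences, CYP71B31 after IVT, CYP71B26 and CYP71B36 after 2IVT, and CYP71B5 and CYP71B23 after PCR lost the call in at least 1 setting.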

How the results depend on the processing

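No called value changed sign under any alternative. Most counts of called genes stayed within 1.5 times. Of genes above unamplified after PCR, 1 was called with each hybridization centred on its median and 1 with regimes fitted separately, against 2 as reported. The IVT median over P450 genes was 0.0924 with centring and 0.0912 with complete features only. With the replicate number as a block it was also 0.0912, against 0.0118 as reported, since the block was fitted on the 19 genes with values on all hybridizations. Replicate numbers did not pair the hybridizations: the correlation of replicate 1 minus replicate 2 between regimes ran from -0.06 to 0.03 over 20465 features, and no call of a P450 gene changed under the block.

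Leaving out 1 hybridization at a time gave 0 to 2 genes lower after PCR, 1 to 3 lower unamplified, 2 to 4 below unamplified after 2IVT and 0 to 2 above unamplified after PCR. The medians ran from 0.0118 to 0.0591 after IVT, 0.0747 to 0.428 after 2IVT and -0.0630 to 0.125 unamplified. Calls were also gained: the difference of CYP71B6 between IVT and unamplified (-0.59) passed without either 2IVT hybridization (adjusted p = 0.0206). With a hybridization left out, its regime has 1 value, which is assumed to vary like the others. The fit gave each feature 1 spread for all 4 regimes, although the SD over all features ran from 0.16 for IVT to 0.25 for 2IVT. Leaving out a hybridization of another regime could therefore change a call while the mean stayed the same. Where both means are near 0, the fitted difference is itself small, and a small true difference could go undetected with 2 hybridizations.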
